A study of Homo sapiens with 9 samples.

Results

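BMP signalling and ID genes were followed in MDA-MB-231 cells through 10 genes chosen by name: the ligand BMP4, the receptors BMPR1A and BMPR2, the receptor-regulated SMAD1, SMAD5 and SMAD9, the inhibitory SMAD6, and the target genes ID1, ID2 and ID3. These genes were chosen with earlier results of these data known. All 10 were found among the 59453 gene names of the count table, and all 10 were among the 16556 genes that passed the expression filter. MDA-MB-231 is an established human line of triple-negative breast cancer, which lacks estrogen and progesterone receptors and HER2 amplification, and it was grown in DMEM with fetal bovine serum. RNA-Seq was available for 3 untreated libraries, 3 libraries of cells given the copper chelator TEPA for 8 h, and 3 libraries of cells given TEPA for 24 h. The sample labels give 8 mM TEPA for both times, whereas the RNA sequencing methods of the study give a lower concentration. A single untreated group, for which the labels give no time, served both time points, so the comparisons at 8 h and 24 h share their controls. With no untreated samples matched to each time, hours of TEPA and hours in culture cannot be told apart. The study asked how copper depletion bears on TGF-β signaling, and the BMP genes belong to another branch of the same ligand superfamily.

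BMPs are secreted ligands that bring together type I receptors, such as BMPR1A, and type II receptors, such as BMPR2, at the cell surface. The type I receptor then phosphorylates SMAD1, SMAD5 or SMAD9, which join SMAD4, enter the nucleus and raise transcription of ID1, ID2, ID3 and of SMAD6, an inhibitor that feeds back on the pathway. ID proteins have a helix-loop-helix but no DNA-binding region, so they pair with E proteins and keep them from DNA, and in epithelial and breast cancer cells they are known for links to proliferation and a less differentiated state.

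The 4 members best known as direct BMP targets are shown with the 250 bases before their start in RefSeq (GRCh38.p14), each written 5′ to 3′ on the strand of its gene, because their levels are the readout that the results below turn on. Capitals mark matches, on either strand, to a GC-rich SMAD element spelled GGCGCC, a SMAD4 element spelled CAGAC, or a TATA box spelled TATAAA. The windows lie at chr20:31605039-31605288 for ID1, chr2:8681806-8682055 for ID2, chr1:23559502-23559751 (minus strand) for ID3, and chr15:66701986-66702235 for SMAD6.
ID1: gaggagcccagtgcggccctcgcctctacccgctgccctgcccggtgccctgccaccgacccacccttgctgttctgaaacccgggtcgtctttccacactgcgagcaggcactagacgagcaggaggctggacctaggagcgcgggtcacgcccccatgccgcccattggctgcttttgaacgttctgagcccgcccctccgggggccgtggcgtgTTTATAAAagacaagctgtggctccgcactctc
ID2: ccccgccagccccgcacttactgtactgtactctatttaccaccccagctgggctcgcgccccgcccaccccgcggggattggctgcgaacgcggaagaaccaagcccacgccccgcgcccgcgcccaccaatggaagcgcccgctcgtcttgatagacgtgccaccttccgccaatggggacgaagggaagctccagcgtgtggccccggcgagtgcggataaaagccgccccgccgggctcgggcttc
ID3: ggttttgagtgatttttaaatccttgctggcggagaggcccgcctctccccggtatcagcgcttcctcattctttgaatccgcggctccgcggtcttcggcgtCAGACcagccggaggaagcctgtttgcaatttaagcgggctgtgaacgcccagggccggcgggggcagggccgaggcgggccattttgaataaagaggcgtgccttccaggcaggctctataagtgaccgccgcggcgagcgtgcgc
SMAD6: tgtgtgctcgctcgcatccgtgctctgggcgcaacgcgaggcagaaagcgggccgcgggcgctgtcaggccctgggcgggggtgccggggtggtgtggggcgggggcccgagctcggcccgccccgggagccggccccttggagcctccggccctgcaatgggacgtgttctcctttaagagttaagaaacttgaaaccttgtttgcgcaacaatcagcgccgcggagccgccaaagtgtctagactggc
In ID1, the TATA letters occurred on both strands in overlapping positions, at 31 bases before the start on the strand of the gene and at 33 on the other. ID3 had the SMAD4 letters at 147 bases before its start. The windows of ID2 and SMAD6 held none of the 3 spellings, which says only that these letters are not there. Over 16 windows of the 10 members, all of which matched a RefSeq entry, the GC-rich spelling was found in 3 members (BMP4, SMAD1 and BMPR2), the SMAD4 spelling in 4 (ID3, BMP4, SMAD1 and BMPR2) and the TATA spelling in 3 (ID1, SMAD1 and BMPR1A). Counted by window, 4, 5 and 3 of the 16 held these spellings, and of all 35116 windows of this length in RefSeq, 16.4%, 38% and 10.7% held them, respectively. A match is a description of letters and not of bound protein.

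Total counts per library ran from 34633755 to 49342659. The line's markers VIM, CD44, EGFR and KRT18 were high in every library, with VIM at 3242 to 4435 CPM (counts scaled to a common library size). ESR1 had at most 9 counts and PGR had 0, while ERBB2 was present at 51.9 to 87.1 CPM. The leukocyte genes PTPRC and CD3E, the endothelial genes CDH5 and VWF and the fibroblast gene DCN reached at most 5 counts in any library. The leukocyte gene CD68 had 3 to 15 counts, and the summed leukocyte list was 0.109 to 0.373 CPM in untreated cells, 0.245 to 0.392 at 8 h and 0.195 to 0.371 at 24 h. The summed fibroblast list (DCN, LUM and PDGFRB) was 28.7 to 41.2 CPM in untreated cells, 24.4 to 28.9 at 8 h and 91.3 to 99.6 at 24 h, nearly all of it from PDGFRB, and the summed endothelial list (PECAM1, CDH5 and VWF) was 2.98 to 4.19, 0.925 to 1.33 and 7.22 to 8.98 CPM, nearly all from PECAM1. Mitochondrially encoded genes took 1.79 to 2.91% of counts in untreated cells, 3.61 to 4.02% at 8 h and 1.89 to 2.02% at 24 h. With those genes left out of the library sizes, 6 members rose and 1 fell at 8 h. The part of the PDGFRB and PECAM1 shifts in the values below was not tested.

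Across the 10 members, 6 rose and 1 fell at 8 h, and 7 rose and 1 fell at 24 h, by edgeR's quasi-likelihood test with Benjamini-Hochberg adjustment over all genes tested (adjusted p under 0.05). Of all genes tested, 25.2% rose and 24.5% fell at 8 h, and 25.7% rose and 26.8% fell at 24 h, so a call by itself was common in these cells. The median log2 fold change of the members was 0.28 at 8 h and 0.38 at 24 h, against 0.00 over all genes at both times. Because the members were chosen with earlier results known, this contrast describes them and is no test of a shift. ID2 and SMAD6 had the highest log2 fold changes of the members at 24 h, ID1, SMAD5 and BMP4 were higher at both times, and SMAD1 was the member that fell. Values below are CPM scaled by TMM factors, and are given in the order of replicates 1, 2 and 3. The labels do not say that replicates came from separate cultures, so p-values rest on the spread between these libraries, which may be technical. In bulk RNA, fewer cells of a kind and less RNA per cell cannot be told apart.

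**Figure D1:**
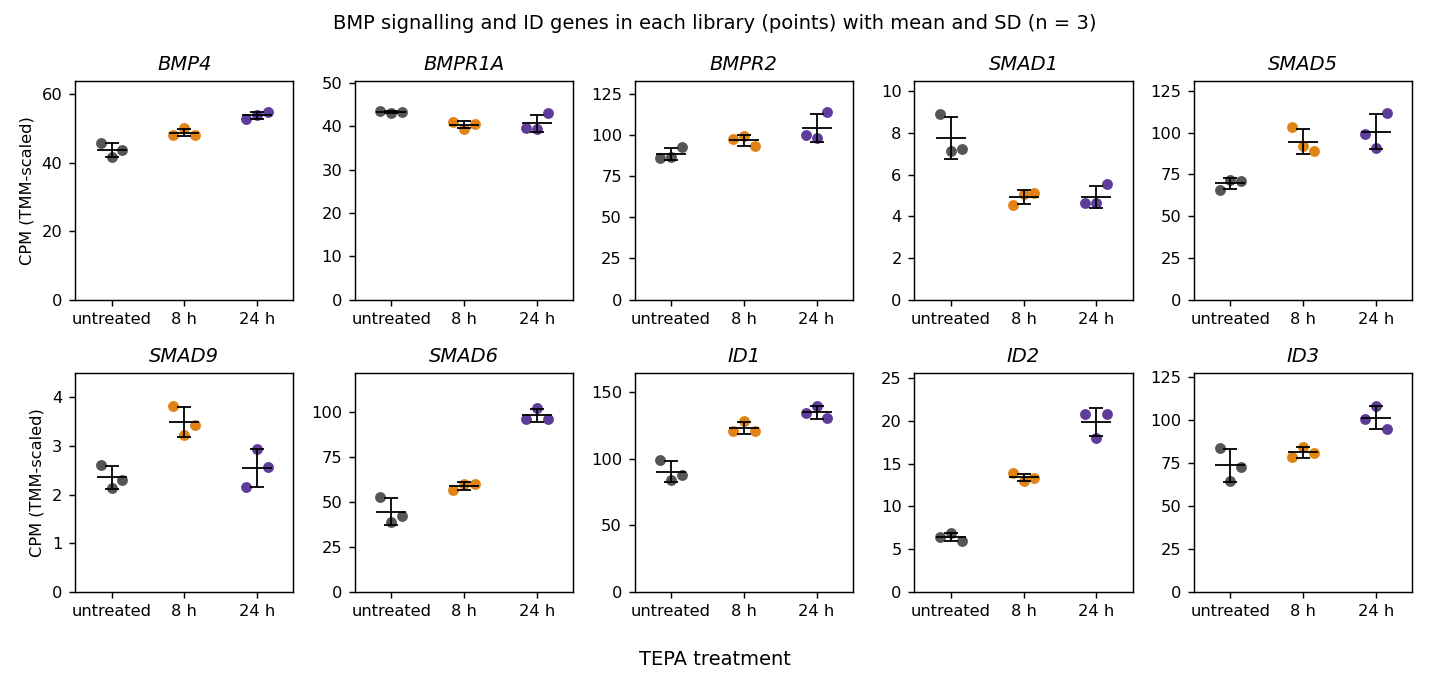
TMM-scaled CPM of the 10 members (vertical axis from 0, one panel per gene) in untreated cells and after 8 h and 24 h of TEPA (horizontal axis), with a point per library and a bar for the mean and SD (n = 3). ID2 goes from 5.93 to 6.90 CPM in untreated cells to 18.0 to 20.9 CPM at 24 h, SMAD1 is lower in all 6 TEPA libraries, and SMAD9 is highest at 8 h.

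BMP4, the ligand, was modestly higher after TEPA. Its level was 45.6, 41.5 and 43.7 CPM in untreated cells, 48.2, 50.01 and 48.1 CPM at 8 h, and 52.7, 53.8 and 54.8 CPM at 24 h. The 3 groups did not overlap and were ordered by time. The log2 fold change was 0.16 ± 0.05 (SE) at 8 h (edgeR adjusted p = 0.00766) and 0.30 ± 0.05 at 24 h (edgeR adjusted p = 3.79e-05), and the 24 h cells were above the 8 h cells by 0.14 ± 0.04 (edgeR adjusted p = 0.0145). Without untreated replicate 2 the 8 h value was 0.12 and no longer passed the test (edgeR adjusted p = 0.0546). BMP4 lies on the minus strand at chr14:53949736-53958761 (hg38), and its GENCODE transcripts cover 3096 bases of exon.

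Most of the other BMP ligands were scarce. Of 14 listed ligands, 5 passed the filter, and of the 4 beside BMP4, 0 rose and 2 fell at 8 h while 1 rose and 2 fell at 24 h. Over all genes tested, 25.2% rose and 24.5% fell at 8 h, and 25.7% rose and 26.8% fell at 24 h. BMP8B, with a mean of 448 counts, fell by 0.40 at 8 h on the log2 scale (edgeR adjusted p = 0.000904) and at 24 h its value was -0.11 (edgeR adjusted p = 0.256). The remaining tested ligands held few reads, and their names are given after their values were seen. BMP2 had 36, 31 and 48 counts in untreated cells, 19, 15 and 14 at 8 h and 18, 7 and 18 at 24 h, and it fell by 1.17 at 8 h (edgeR adjusted p = 0.00806) and by 1.50 at 24 h (edgeR adjusted p = 0.00151). BMP6 had at most 21 counts in a library and BMP8A at most 32, and at 24 h the former fell by 1.99 (edgeR adjusted p = 0.00199) and the latter rose by 1.10 (edgeR adjusted p = 0.0469).

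The 2 receptors had small fold changes. BMPR1A, a type I receptor, was at 43.6, 43.1 and 43.3 CPM in untreated cells, 41.0, 39.4 and 40.6 CPM at 8 h, and 39.7, 39.5 and 43.0 CPM at 24 h. Every TEPA library lay below every untreated library, by a small margin for 1 of them. The log2 fold changes of -0.10 ± 0.05 at 8 h (edgeR adjusted p = 0.0737) and -0.09 ± 0.05 at 24 h (edgeR adjusted p = 0.107) did not pass the test. Without TEPA 24 h replicate 3, BMPR1A was called lower at 24 h, at -0.13 (edgeR adjusted p = 0.0312). BMPR2, a type II receptor, was at 85.8, 86.8 and 92.7 CPM in untreated cells, 97.7, 99.6 and 93.1 CPM at 8 h, and 99.8, 98.4 and 114 CPM at 24 h. TEPA libraries were above untreated ones, with 92.7 and 93.1 CPM as the nearest values of the untreated and 8 h groups, and the 8 h and 24 h groups overlapped. At 24 h, BMPR2 rose by 0.23 ± 0.05 (edgeR adjusted p = 0.00174), and it stood close to the threshold at 8 h, at 0.13 ± 0.05 (edgeR adjusted p = 0.0544). The 8 h value of BMPR2 was called higher in 7 of 19 other settings, such as upper-quartile factors (edgeR adjusted p = 0.0350), and stayed uncalled in 12. The gene spans chr2:202376327-202567751 on the plus strand, and BMPR1A spans chr10:86756596-86932825 on the plus strand.

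Other receptors and co-receptors moved in both directions. Of 11 listed, 8 passed the filter, and of the 6 beside BMPR1A and BMPR2, 2 rose and 1 fell at 8 h, and 2 rose and 3 fell at 24 h. The medians over all 8 were 0.01 and -0.08. Calls in both directions were common, as 25.2% of all genes rose and 24.5% fell at 8 h, and 25.7% and 26.8% did at 24 h. ACVR2B, a type II receptor for activins and BMPs, had log2 fold changes of 0.20 (edgeR adjusted p = 0.0177) and 0.53 (edgeR adjusted p = 4.58e-06) at 8 h and 24 h. ACVR1, a type I receptor, fell by 0.12 at 8 h (edgeR adjusted p = 0.0393) and by 0.21 at 24 h (edgeR adjusted p = 0.00117), but the 8 h value missed the threshold with upper-quartile factors (edgeR adjusted p = 0.0668). The co-receptor RGMB rose at 8 h, by 0.31 (edgeR adjusted p = 1.43e-05), and fell by 0.16 at 24 h (edgeR adjusted p = 0.00361). ENG, a co-receptor best known from endothelium, rose by 0.21 at 24 h (edgeR adjusted p = 0.00155). BMPR1B, named after its values were seen, had 68, 90 and 84 counts in untreated cells and 48, 43 and 27 at 24 h, where it fell by 1.12 on the log2 scale (edgeR adjusted p = 4.78e-05).

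The 3 receptor-regulated SMADs of the BMP branch each followed a course of their own. SMAD1 was at 8.90, 7.14 and 7.23 CPM in untreated cells, 4.55, 5.07 and 5.14 CPM at 8 h, and 4.63, 4.66 and 5.53 CPM at 24 h. No TEPA library reached the lowest untreated one, and the libraries of 8 h and 24 h overlapped. SMAD1 fell by 0.65 ± 0.11 at 8 h (edgeR adjusted p = 0.000157) and by 0.65 ± 0.11 at 24 h (edgeR adjusted p = 0.000117), and the difference between the times was 0.00 ± 0.12 (edgeR adjusted p = 0.997). Across the library left out, the log2 fold change ran from -0.72 to -0.55 at 8 h and from -0.74 to -0.55 at 24 h. SMAD1 lies on the plus strand at chr4:145481194-145559176.

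SMAD5 rose where SMAD1 fell. Its level was 65.9, 71.9 and 71.2 CPM in untreated cells, 103.3, 91.8 and 88.9 CPM at 8 h, and 99.4, 90.6 and 112 CPM at 24 h. All TEPA libraries were above all untreated ones, with overlap between the times. On the log2 scale SMAD5 rose by 0.44 ± 0.07 at 8 h (edgeR adjusted p = 7.48e-05) and by 0.53 ± 0.07 at 24 h (edgeR adjusted p = 1.04e-05), and the change from 8 h to 24 h of 0.08 ± 0.07 did not pass the test (edgeR adjusted p = 0.308). SMAD5 lies on the plus strand at chr5:136132845-136188747.

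SMAD9, the scarcest member, was raised at 8 h and not at 24 h. It was at 2.61, 2.15 and 2.31 CPM in untreated cells, 3.82, 3.22 and 3.43 CPM at 8 h, and 2.16, 2.94 and 2.56 CPM at 24 h. The 8 h libraries were above all others, and the 24 h libraries overlapped the untreated ones. Its counts were 91 to 98 in untreated libraries and 123 to 153 at 8 h. Fold changes on the log2 scale were 0.57 ± 0.14 at 8 h (edgeR adjusted p = 0.00363) and 0.11 ± 0.15 at 24 h (edgeR adjusted p = 0.541), and from 8 h to 24 h SMAD9 fell by 0.46 ± 0.14 (edgeR adjusted p = 0.0119). That last call was lost without TEPA 8 h replicate 1, at -0.38 (edgeR adjusted p = 0.0596), and without TEPA 24 h replicate 1, at -0.34 (edgeR adjusted p = 0.0771). The gene lies on the minus strand at chr13:36844831-36920887.

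As shares of the 3 receptor-regulated SMADs together, in CPM per kilobase of annotated exon, SMAD1 made up 11.9 ± 1.8% (SD, n = 3) in untreated cells, 5.94 ± 0.79% at 8 h and 5.69 ± 0.23% at 24 h. SMAD5 made up 83.8 ± 2.3%, 89.1 ± 0.80% and 90.8 ± 0.96%. SMAD5 was therefore the main transcript of the family in every library, and the ratio of SMAD5 to SMAD1 per kilobase went from 5.80 to 7.91 in untreated cells to 13.6 to 17.8 at 8 h and 15.3 to 16.8 at 24 h. SMAD4, the partner that receptor-regulated SMADs share with the TGF-β branch, was at a log2 fold change of -0.08 after 8 h (edgeR adjusted p = 0.144) and rose by 0.26 at 24 h (edgeR adjusted p = 0.000182).

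The 2 inhibitory SMADs were both higher than in untreated cells at each time, and between 8 h and 24 h one rose and the other fell. SMAD6, which acts mainly against BMP signalling, was at 52.8, 38.9 and 41.9 CPM in untreated cells, 56.3, 60.1 and 60.1 CPM at 8 h, and 95.9, 102 and 95.8 CPM at 24 h. The groups did not overlap, although untreated replicate 1 stood close to the 8 h libraries. SMAD6 rose by 0.40 ± 0.08 at 8 h (edgeR adjusted p = 0.000626) and by 1.14 ± 0.08 at 24 h (edgeR adjusted p = 1.11e-08), a 2.20-fold rise, and it was 0.74 ± 0.08 higher at 24 h than at 8 h (edgeR adjusted p = 9.97e-07). Without untreated replicate 1 the log2 fold change was 0.54 at 8 h, and without untreated replicate 2 it was 0.31. SMAD7, an inhibitory SMAD of both the TGF-β and BMP branches, rose by 0.78 at 8 h (edgeR adjusted p = 1.41e-07) and by 0.19 at 24 h (edgeR adjusted p = 0.0268), and it fell by 0.59 from 8 h to 24 h (edgeR adjusted p = 1.21e-06). SMAD6 lies on the plus strand at chr15:66702236-66782849.

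The ratio of SMAD6 to SMAD1 per kilobase of exon was 4.52 to 4.92 in untreated cells, 9.70 to 10.3 at 8 h and 14.4 to 18.2 at 24 h. These ranges did not overlap between the 3 groups of libraries. Both the rise of SMAD6 and the fall of SMAD1 enter this ratio.

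ID2 changed more than any other member in the log2 fold change at 8 h and at 24 h. It was at 6.37, 6.90 and 5.93 CPM in untreated cells, 13.9, 13.0 and 13.3 CPM at 8 h, and 20.9, 18.0 and 20.8 CPM at 24 h. The 3 groups were far apart, with no overlap. ID2 rose by 1.06 ± 0.08 at 8 h (edgeR adjusted p = 8.13e-08), a 2.09-fold rise, and by 1.63 ± 0.08 at 24 h (edgeR adjusted p = 3.12e-10), a 3.10-fold rise, and the 24 h cells exceeded the 8 h cells by 0.57 ± 0.07 (edgeR adjusted p = 9.40e-06). ID2 spans chr2:8678845-8684461 on the plus strand. Its antisense neighbour ID2-AS1 had 15 to 86 counts in a library, far fewer than the 234 to 1063 counts of ID2, and the study counted reads by strand. ID2-AS1 had log2 fold changes of 0.46 at 8 h (edgeR adjusted p = 0.203) and 1.93 at 24 h (edgeR adjusted p = 7.64e-06).

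ID1 was the most abundant member per kilobase of exon and was already higher at 8 h. It was at 99.4, 84.1 and 87.5 CPM in untreated cells, 121, 129 and 121 CPM at 8 h, and 134, 140 and 131 CPM at 24 h. No library of one group overlapped another group. Its log2 rise was 0.45 ± 0.05 at 8 h (edgeR adjusted p = 5.65e-06) and 0.58 ± 0.05 at 24 h (edgeR adjusted p = 2.85e-07). The step from 8 h to 24 h was 0.13 ± 0.05 and missed the threshold (edgeR adjusted p = 0.0514). It was called higher in 12 of 19 other settings and stayed uncalled in 7. With RLE factors it was 0.14 (edgeR adjusted p = 0.0365), and with total counts alone 0.20 (edgeR adjusted p = 0.00610). ID1 lies on the plus strand at chr20:31605283-31606515.

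ID3 passed the test at 24 h but not at 8 h, whereas ID1 and ID2 passed at both times. A difference in timing between these genes was not tested. Its level was 83.6, 64.4 and 72.6 CPM in untreated cells, 78.1, 84.4 and 80.6 CPM at 8 h, and 101, 108 and 94.8 CPM at 24 h. The untreated libraries were the most spread and overlapped those at 8 h, whereas all 24 h libraries stood above all others. The log2 fold change was 0.14 ± 0.07 at 8 h (edgeR adjusted p = 0.120) and 0.47 ± 0.07 at 24 h (edgeR adjusted p = 5.91e-05), and from 8 h to 24 h ID3 rose by 0.32 ± 0.07 (edgeR adjusted p = 0.00134). The value at 8 h hung on the untreated libraries, since it was 0.24 without replicate 1 (edgeR adjusted p = 0.00251) and 0.05 without replicate 2 (edgeR adjusted p = 0.573). ID3 lies on the minus strand at chr1:23557926-23559501.

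Within the ID family, ID1 and ID3 made up nearly all transcripts per kilobase of exon, and the share of ID2 grew from 2.33 ± 0.35% (SD, n = 3) in untreated cells to 3.78 ± 0.25% at 8 h and 4.84 ± 0.56% at 24 h. The ratio of ID1 to ID2 per kilobase was 21.9 to 28.0, 15.6 to 17.8 and 11.3 to 13.9 in the 3 groups. The ratio of ID1 to ID3 was 1.44 to 1.58 in untreated cells, 1.82 to 1.87 at 8 h and 1.57 to 1.67 at 24 h, highest in the 8 h libraries. ID4, the remaining family member, had at most 6 counts in a library and was not tested.

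**Figure D2:**
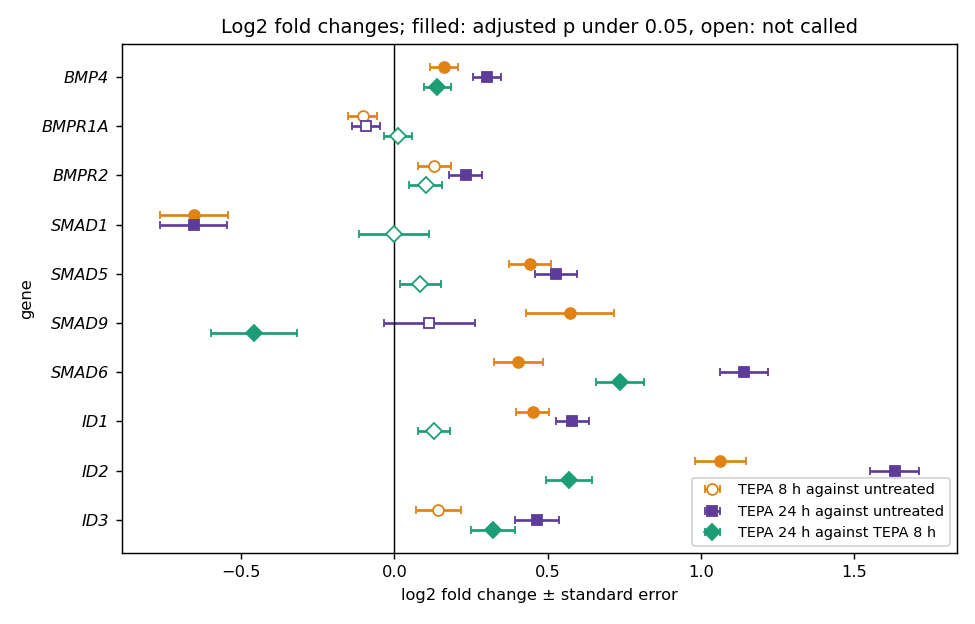
Log2 fold change (horizontal axis) with its standard error for each member (vertical axis) at 8 h and 24 h of TEPA against untreated cells and at 24 h against 8 h. Filled symbols passed an edgeR adjusted p under 0.05, and ID2 and SMAD6 lie farthest to the right at 24 h, while SMAD1 is near -0.65 at both times.

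Between the TEPA times, 4 members rose from 8 h to 24 h (ID2, ID3, BMP4 and SMAD6), SMAD9 fell, and the difference did not pass the test for 5 others. Among these 5, ID1 was called higher in 12 of 19 other settings. Over all genes, 26.0% rose and 28.8% fell between these times. The median log2 fold change was 0.12 for the members and -0.02 for all genes. With a log2 fold change beyond 0.5 also required, 2 members rose at 8 h (ID2 and SMAD9), 4 at 24 h (ID1, ID2, SMAD5 and SMAD6) and 2 from 8 h to 24 h (ID2 and SMAD6), so several of the calls above concern changes of modest size. SMAD1 still fell at 8 h and at 24 h under this limit. Of the 16556 genes tested, 1673 rose and 1270 fell at 8 h under it, and 1695 rose and 1400 fell at 24 h. Between the times, 1716 rose and 1789 fell.

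In levels per kilobase of exon, the order in untreated cells was ID1 at 73.2 ± 6.5 CPM per kilobase, ID3 at 49.1 ± 6.4, BMP4 at 14.1 ± 0.66, SMAD5 at 7.71 ± 0.37, BMPR2 at 7.07 ± 0.30, SMAD6 at 5.21 ± 0.86, BMPR1A at 4.30 ± 0.03, ID2 at 2.89 ± 0.22, SMAD1 at 1.09 ± 0.14 and SMAD9 at 0.395 ± 0.040 (SD, n = 3). Neighbours in that order did not overlap, apart from SMAD5 and BMPR2. At 8 h, ID2 passed BMPR1A, at 6.05 ± 0.21 against 4.00 ± 0.08 CPM per kilobase, and SMAD1 overlapped SMAD9. By 24 h, SMAD6 stood at 11.5 ± 0.43 CPM per kilobase and overlapped SMAD5, at 11.1 ± 1.2, and ID2 stood at 8.99 ± 0.72 and overlapped BMPR2, at 8.32 ± 0.69. ID1, ID3 and BMP4 held the first places, and SMAD1 and SMAD9 the last, in all 3 groups. The length is the union of all annotated exons, so a gene whose cells use a shorter transcript is understated.

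**Figure D3:**
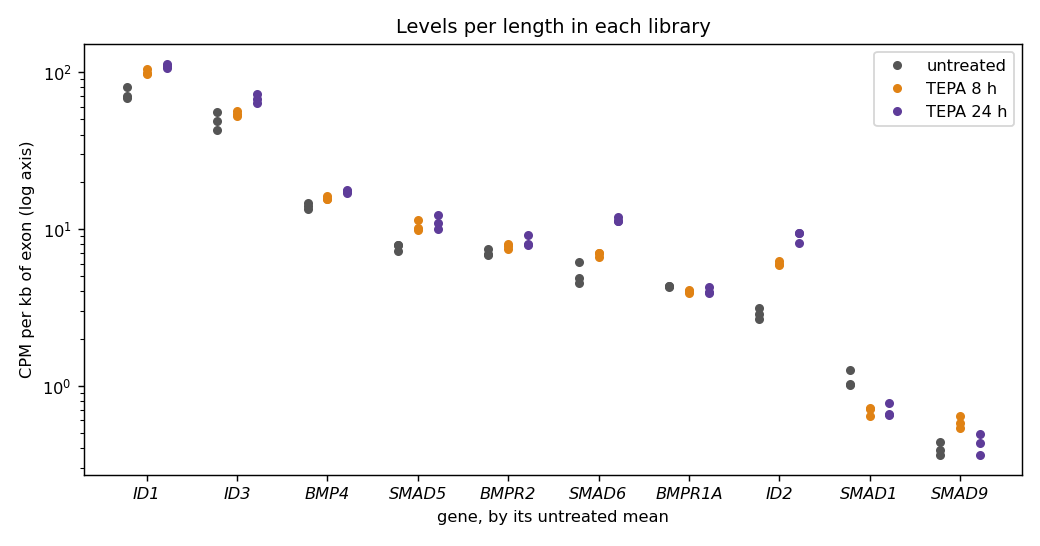
TMM-scaled CPM per kilobase of annotated exon (vertical log axis) of each member, ordered by its untreated mean (horizontal axis), with a point per library in 3 groups. ID2 moves from 2.89 CPM per kilobase in untreated cells to 8.99 at 24 h and comes level with BMPR2, while SMAD6 comes level with SMAD5.

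Genes known as BMP targets were counted as a list of 15, which includes ID1, ID2, ID3, SMAD6 and SMAD9. Of 12 that passed the filter, 8 rose and 1 fell at 8 h and 8 rose and 1 fell at 24 h, with medians of 0.33 and 0.40. Outside the members, 4 of 7 rose and 1 fell at each time. The shares over all genes were 25.2% higher and 24.5% lower at 8 h, and 25.7% and 26.8% at 24 h. ATOH8, a helix-loop-helix factor, had 5.30 to 6.64 CPM in untreated cells, 4.62 to 5.83 at 8 h and 13.2 to 15.2 at 24 h. Its log2 fold change was -0.10 at 8 h (edgeR adjusted p = 0.508) and 1.33 at 24 h (edgeR adjusted p = 4.17e-08), and its untreated and 8 h libraries overlapped. NOG, which encodes the BMP antagonist noggin, rose by 0.57 at 8 h (edgeR adjusted p = 7.46e-05) and 0.38 at 24 h (edgeR adjusted p = 0.00209). BAMBI, a decoy receptor, rose by 0.41 at 24 h (edgeR adjusted p = 1.65e-05), and by less at 8 h, 0.15 (edgeR adjusted p = 0.0463). The 8 h call of BAMBI was lost with RLE factors, total counts alone and mitochondrial genes left out (edgeR adjusted p = 0.0538, 0.0708 and 0.0530). RUNX2, a bone transcription factor, rose by 0.25 at 8 h (edgeR adjusted p = 0.000620) and was at 0.02 at 24 h (edgeR adjusted p = 0.733). MSX2, a homeobox target, went the other way, since it fell by 0.44 at 8 h (edgeR adjusted p = 0.000315) and by 0.68 at 24 h (edgeR adjusted p = 3.72e-06).

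Secreted antagonists and modulators of BMPs were split. Of 18 listed, 10 passed the filter, of which 5 rose and 2 fell at 8 h and 3 rose and 4 fell at 24 h. A split is not particular to this list, since 25.2% of all genes rose and 24.5% fell at 8 h. At 24 h these shares were 25.7% and 26.8%. FSTL3, a follistatin-like binder of activins and BMPs, was at 72.0 to 83.4 CPM in untreated cells, 111 to 113 at 8 h and 51.0 to 54.5 at 24 h, with log2 fold changes of 0.53 (edgeR adjusted p = 3.64e-07) and -0.54 (edgeR adjusted p = 2.48e-07). Its 3 groups did not overlap, and it was raised at the first time and lowered at the second. FST, follistatin, had log2 fold changes of 0.21 at 8 h (edgeR adjusted p = 0.0498) and -0.58 at 24 h (edgeR adjusted p = 4.20e-05). The 8 h call of FST was lost with RLE factors, total counts alone and mitochondrial genes left out (edgeR adjusted p = 0.0537, 0.0643 and 0.0536). TWSG1, a BMP-binding modulator, fell by 0.43 at 8 h (edgeR adjusted p = 1.35e-05) and rose by 0.14 at 24 h (edgeR adjusted p = 0.0433). NBL1, an antagonist of the DAN family, fell by 0.27 (edgeR adjusted p = 0.000889) and 0.46 (edgeR adjusted p = 6.13e-06) at 8 h and 24 h, and CRIM1, a membrane protein that binds BMPs, rose by 0.10 (edgeR adjusted p = 0.0207) and 0.26 (edgeR adjusted p = 1.20e-05). BMPER, named after its values were seen, had 24, 39 and 20 counts in untreated cells and 74, 70 and 54 at 8 h, a log2 rise of 1.35 (edgeR adjusted p = 0.000338), and 26, 18 and 8 at 24 h, where it fell by 0.76 (edgeR adjusted p = 0.0460). The 24 h call of BMPER was lost with upper-quartile factors (edgeR adjusted p = 0.0544) and with total counts alone (edgeR adjusted p = 0.0647). FSTL1, a follistatin-like protein, was called only between the TEPA times, where it rose by 0.14 (edgeR adjusted p = 0.0192). GREM1 and CER1 had 0 counts in every library.

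Inhibitors of the pathway at the membrane and inside the cell also moved both ways, with 4 of 12 higher and 4 lower at 8 h and 5 higher and 4 lower at 24 h. With total counts as the only scaling, the 24 h count became 6 higher and 0 lower. With TMM factors, 25.2% of all genes rose and 24.5% fell at 8 h, and 25.7% and 26.8% did at 24 h. Movement both ways is therefore not particular to these inhibitors. At 8 h, the transcriptional co-repressors SKIL and SKI rose by 0.64 (edgeR adjusted p = 7.48e-05) and 0.30 (edgeR adjusted p = 5.24e-06). The phosphatases CTDSPL, CTDSP2 and CTDSP1, which act on SMADs, fell by 0.72, 0.34 and 0.17 at 8 h (edgeR adjusted p = 7.74e-08, 7.26e-05 and 0.00241). SMURF2, a ubiquitin ligase for SMADs and their receptors, rose by 0.22 at 8 h (edgeR adjusted p = 0.000519) and fell by 0.14 at 24 h (edgeR adjusted p = 0.0120), the latter lost with total counts alone. TOB1, a repressor that binds BMP-branch SMADs, fell by 0.37 at 8 h (edgeR adjusted p = 0.00115) and rose by 0.40 at 24 h (edgeR adjusted p = 0.000373). At 24 h, SKIL was still higher by 0.33 (edgeR adjusted p = 0.0115), SKI by 0.10 (edgeR adjusted p = 0.0266) and FKBP1A, a protein bound to type I receptors, by 0.13 (edgeR adjusted p = 0.00325). CTDSPL, SMURF1 and CTDSP1 fell by 0.19, 0.14 and 0.10 at 24 h (edgeR adjusted p = 0.00869, 0.00483 and 0.0444), each lost with total counts alone. CTDSP1 was also lost with RLE factors (edgeR adjusted p = 0.0635) and upper-quartile factors (edgeR adjusted p = 0.125).

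Of 8 listed helix-loop-helix partners of ID proteins, 5 passed the filter, with 0 higher and 1 lower at 8 h and 1 higher and 1 lower at 24 h. Among all genes tested, 25.2% were higher and 24.5% lower at 8 h, and 25.7% and 26.8% at 24 h. The E proteins TCF3 and TCF12 did not pass the test at either time, with log2 fold changes of 0.05 and -0.02 for TCF3 and of -0.05 and -0.04 for TCF12 at 8 h and 24 h. TCF4, named after its values were seen, had 26 to 39 counts in untreated libraries and 49 to 64 at 24 h, where it rose by 0.73 (edgeR adjusted p = 0.0153). HES1, a helix-loop-helix repressor, fell by 0.31 at 8 h (edgeR adjusted p = 0.000538) and by 0.22 at 24 h (edgeR adjusted p = 0.00482). TWIST1, TWIST2 and MYOD1 had 0 counts in all 9 libraries.

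**Figure D4:**
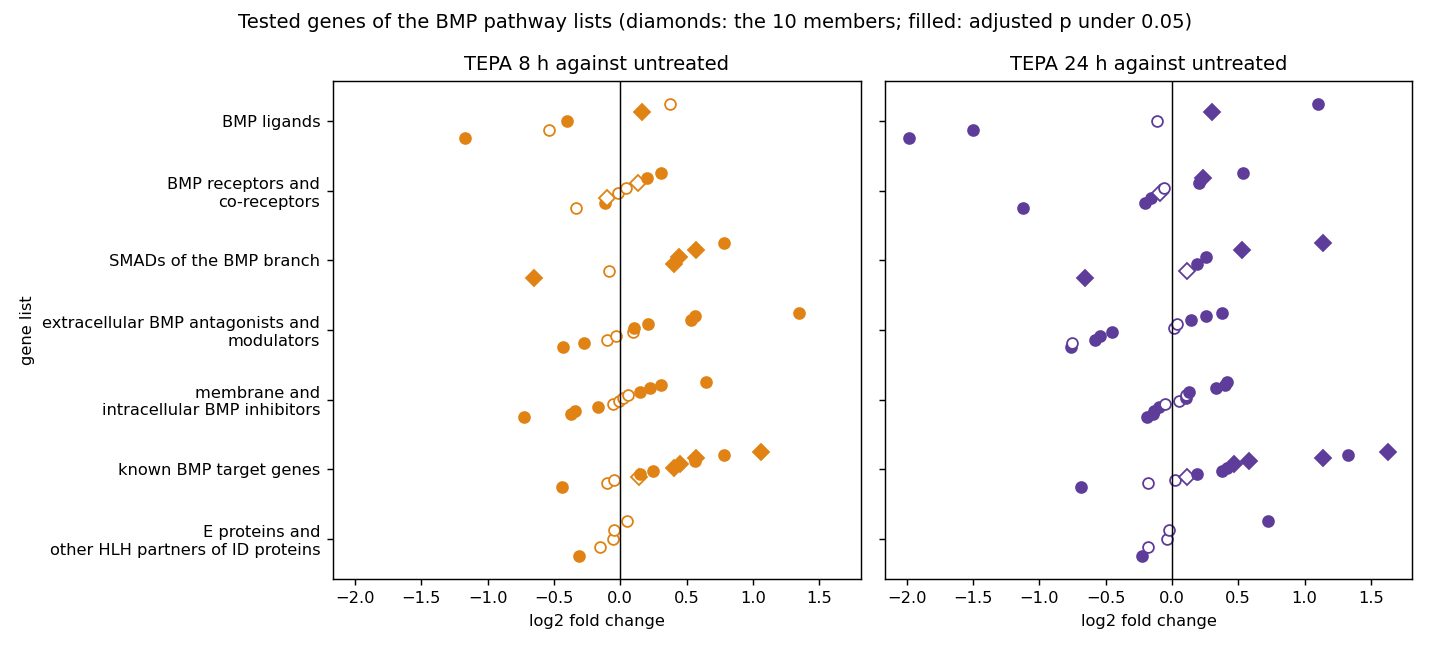
Log2 fold change (horizontal axis) of each tested gene in 7 lists of the BMP pathway (vertical axis), at 8 h on the left and 24 h on the right. Diamonds are the 10 members, some of which are in 2 lists, and filled symbols passed an edgeR adjusted p under 0.05. The lists of SMADs and of known targets have more filled symbols to the right of 0 than to its left at both times, while the other lists are spread to both sides. Those lists share SMAD6, SMAD7 and SMAD9, and beside members the list of SMADs holds only SMAD4 and SMAD7.

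Over the 38 tested pathway genes other than the members, 13 rose and 10 fell at 8 h, and 14 rose and 14 fell at 24 h. Their median log2 fold changes were -0.01 and -0.02, against 0.28 and 0.38 for the 10 members, which include 5 of the known targets. Both sets were chosen with earlier results of these data known, so the contrast is a description and not a test. The percentages of all genes that rose and fell, given above, are the background for both sets of counts.

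The genes whose course was most like that of ID1 were sought over the 9 libraries, as the smallest root mean square difference in log2 CPM after each gene was centred on its untreated mean. Among 11919 genes with a mean of at least 100 counts, these were KAT8 at a difference of 0.039, AP1G2 at 0.052, NAGPA at 0.062, and LINC00174 and CHD3, both at 0.070. For ID3 they were BTN2A2 at 0.053, RARG at 0.054, MPND at 0.070, and HOXB9 and SIX5, both at 0.074. KAT8, for example, had log2 fold changes of 0.46 and 0.60 at 8 h and 24 h. Among the members themselves, BMP4 and BMPR2 were the closest pair, at 0.079, followed by ID3 and BMP4 at 0.12 and ID1 and SMAD5 at 0.15. ID1 and ID2 were farther apart, at 0.71, although both rose at 8 h and 24 h, ID2 by more. The measure depends on the size of the changes, so genes that change little lie close, and a small difference does not show shared control.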

How the data were processed

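The 10 members and the pathway lists were chosen with earlier results of these data known. The authors aligned paired reads to hg38 with HISAT2 after FastQC and deposited raw counts per gene name, taken over exons by strand with featureCounts, with no normalization. From these counts, genes were kept by filterByExpr at a minimum count of 10 in edgeR 4.0.16 (R 4.3.3), which left 16556 genes with 99.95% of counts. Libraries were grouped by their treatment label (8 or 24 h), although the protocol text in the labels names 24 h for every sample. All 9 libraries entered one quasi-likelihood fit with TMM factors. Benjamini-Hochberg adjustment covered every gene tested, and a call is an adjusted p under 0.05. Standard errors were derived from each log2 fold change and its F statistic. All members were named, as were genes of the lists with an adjusted p under 0.05 and a mean of at least 100 counts. No pair of replicates differed by less than counting noise. The spread relative to counting noise (chi-square per degree of freedom) was 6.65 to 21.4 for untreated pairs, 2.38 to 4.40 at 8 h and 3.38 to 7.60 at 24 h. It was largest between untreated replicates 1 and 2, in the group that both comparisons share. Alternatives were RLE, upper-quartile and no factors, mitochondrial genes left out, other filters, DESeq2 1.42.0, only the 2 groups compared, a replicate block, a log2 limit of 0.5, and each library left out. The procedure was run on simulated counts with few changed genes and a single dispersion for all genes. Many more genes changed in these data, so the simulation does not show how the procedure behaves here. Gene positions and exon lengths are from GENCODE on hg38, and promoter windows from RefSeq on GRCh38.p14. The authors counted reads over exons of an Ensembl annotation, so levels per kilobase divide those counts by lengths from another annotation.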

Additional observations from a re-analysis of the deposited data

Results flagged for a closer look

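For 5 members, levels after 24 h of TEPA differed from those after 8 h, by the direct edgeR comparison of the 2 times with Benjamini-Hochberg adjustment. Over all genes tested, 26.0% rose and 28.8% fell between these times, so such a difference is not particular to the members. Both times share 1 untreated group, so the duration of TEPA and the time in culture cannot be told apart here. The log2 fold change at 24 h minus that at 8 h was 0.57 for ID2 (adjusted p = 9.40e-06), 0.32 for ID3 (adjusted p = 0.00134), 0.14 for BMP4 (adjusted p = 0.0145) and 0.74 for SMAD6 (adjusted p = 9.97e-07), each higher at 24 h in 3 of 3 libraries. For SMAD9 it was -0.46 (adjusted p = 0.0119), with all 3 libraries at 24 h below those at 8 h. Mitochondrially encoded genes took a larger share of counts at 8 h than at 24 h, and with them left out of the library sizes these differences were 0.57 for ID2, 0.33 for ID3, 0.15 for BMP4, 0.74 for SMAD6 and -0.45 for SMAD9.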

How the results depend on the processing

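Over 19 other settings, 9 of which left out 1 library, 517 of 570 member values kept their direction and their side of the threshold, 13 lost the call, 24 gained one and 16 changed sign. Of 30 results, 12 kept direction and side in every setting, among them ID2 in all 3 comparisons and SMAD1 against untreated cells. With a log2 limit of 0.5, members called higher were 2 at 8 h, 4 at 24 h and 2 between the times, and 0 were lower between the times, because small changes are then not counted. SMAD1 stayed lower at 8 h and at 24 h, and the counts over all genes at this limit are given above. With 1 library left out, members lower at 24 h numbered 1 to 2, and members lower between the times 0 to 1. Values that changed sign were never called. SMAD1 between the times was 0.0115 with RLE factors, 0.0119 with upper-quartile factors, 0.0146 with DESeq2, 0.00832 with no filter, 0.00716 with 10 counts in every library, 0.00468 with mitochondrial genes left out, 0.0716 with total counts and 0.0244 with only the 2 groups compared, and ran from -0.0814 to 0.0467 with 1 library left out. Over libraries left out, SMAD9 at 24 h ran from -0.00474 to 0.231, and BMPR1A between the times from -0.0253 to 0.0352. The cause was not tested. With total counts alone, genes higher and lower at 24 h were 5204 and 3557 in place of 4253 and 4435, and between the times 5504 and 3724 in place of 4309 and 4770. Replicate numbers gave no sign of pairing, since same-numbered libraries correlated at -0.080 to 0.038 over 9 pairs and 1 of 9 libraries was closest to its own number. With 3 libraries in a group, this cannot exclude that a number marks a shared culture or day. With the replicate block, 6 members rose and 1 fell at 8 h, and 4087 genes rose and 4268 fell at 24 h. SMAD9, with 91 to 153 counts in a library, had the fewest counts of the members. Its standard errors, 0.144 at 8 h, 0.147 at 24 h and 0.141 between the times, were the largest of the members. The part of depth in this was not tested.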
